A study of Mus musculus with 2 samples.

Results

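The 9 genes described here encode proteins linked to NONO condensates and paraspeckles, FET proteins among them, and *Neat1*, the RNA of paraspeckles (nuclear bodies described below). The study placed VGLL3 in NONO condensates other than paraspeckles, and most of the VGLL3 puncta it saw lacked *Neat1*. The 9 genes were chosen by gene name: *Ewsr1* and *Taf15* of the FET family, *Nono*, *Sfpq* and *Pspc1* of the DBHS family, the RNA-binding proteins *Rbm14*, *Matr3* and *Tardbp*, and the long noncoding RNA *Neat1*. All 9 were found once by symbol among the 24532 genes of the deposited count table, and all 9 were among the 14158 genes with a deposited TPM value, which is a level scaled for transcript length and library size.

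Cardiac myofibroblasts, the collagen-producing cells of the injured heart, came from C57BL/6 mice 3 days after myocardial infarction (MI). The cultures, in serum-containing DMEM, were transfected by Lipofectamine RNAiMAX with 12.5 nM of a control siRNA (siCtrl) or of 1 siRNA against *Vgll3* (si*Vgll3*), and total RNA was taken after 72 h. The MI model used male adult mice according to the methods of the study, with the cells purified by magnetic sorting, and the number of mice behind a culture is not given in the sources used here. Each condition has 1 library, so no difference described here could be set against a spread between replicates, and p-values are not given.

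Paraspeckles are nuclear bodies built around the long form of *Neat1*, which holds NONO, SFPQ and other RNA-binding proteins by phase separation. NONO, SFPQ and PSPC1 form dimers with each other through their DBHS (Drosophila behaviour/human splicing) region, whereas the FET proteins EWSR1 and TAF15 carry prion-like domains and act in transcription and splicing. TDP-43, the product of *Tardbp*, binds UG-rich RNA and lowers its own mRNA through its 3′ UTR, and VGLL3 is a cofactor of the TEAD transcription factors that the study examined in condensates holding NONO.

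Since TDP-43 binds UG-rich RNA, the transcripts of the 9 genes were searched for unbroken TG runs of at least 8 bases in the DNA letters of GENCODE vM21, the annotation of GRCm38 (mm10). The following windows of 30 bases show the longest such run of each gene that has one, in capitals, read 5′ to 3′ on the gene's own strand, which is the minus strand for all of them. The *Neat1* window is at chr19:5826024-5826053, in the exon of the long form only. The *Tardbp* window is at chr4:148613760-148613789 and the *Pspc1* window at chr14:56721941-56721970, both in the 3′ UTR.
Neat1 long form: gagTGTGTGTGTGTGTGTGTGTGTGTGgtg
Tardbp 3′ UTR: tcctcctatagTGTGTGTGgacagcccaca
Pspc1 3′ UTR: tcaatatgtaTGTGTGTGTGtacatttata

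The long *Neat1* transcript held 6 such runs, the longest of 24 bases, whereas the short transcript held none. The *Tardbp* run of 8 bases lies in 4 of the 5 annotated transcripts matched to RefSeq and is absent from the shortest, Tardbp-204. *Pspc1* held 1 run of 10 bases, and no run was found in *Ewsr1*, *Taf15*, *Nono*, *Sfpq*, *Rbm14* or *Matr3*. The *Pspc1* run begins at base 2864 of a GENCODE transcript of 4114 nt. The mean length computed below from the authors' values was 2380 nt, so the transcript they quantified may not hold this run. Among 33363 GENCODE transcripts matched to RefSeq, 18.4% held a TG run of this length, so a run in a transcript is common and is given here as a description of the sequence.

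Because VGLL3 is a cofactor of TEAD factors, RefSeq promoter windows were read for the TEAD core GGAATG on either strand. In the study, however, knockdown of *Tead1* left fibrotic gene expression in cardiac myofibroblasts unaffected. The windows (GRCm38.p6) hold 300 bases around the annotated start, mostly upstream. Windows were matched for 7 of the 9 genes, and the core was found in *Ewsr1* and *Rbm14* only, against 14.7% of all 32851 windows of this length. The *Rbm14* core lies past the annotated gene start at chr19:4811634, so within transcribed sequence rather than upstream. The *Ewsr1* core lies upstream of the GENCODE gene start at chr11:5099266, but most of that window lies past this start. The windows of these genes are shown beside that of *Tardbp*, the member with the largest difference between the libraries, with the core (read as CATTCC on the gene's strand) in capitals. All are on the minus strand and lie at chr11:5099047-5099346 (*Ewsr1*), chr19:4811585-4811884 (*Rbm14*) and chr4:148626947-148627246 (*Tardbp*).
Ewsr1: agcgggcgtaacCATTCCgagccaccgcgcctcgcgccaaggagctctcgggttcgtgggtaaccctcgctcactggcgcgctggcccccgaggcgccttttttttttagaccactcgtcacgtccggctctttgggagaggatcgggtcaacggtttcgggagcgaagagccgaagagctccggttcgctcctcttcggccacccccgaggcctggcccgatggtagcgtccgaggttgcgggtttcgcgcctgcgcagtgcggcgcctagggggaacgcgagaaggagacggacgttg
Rbm14: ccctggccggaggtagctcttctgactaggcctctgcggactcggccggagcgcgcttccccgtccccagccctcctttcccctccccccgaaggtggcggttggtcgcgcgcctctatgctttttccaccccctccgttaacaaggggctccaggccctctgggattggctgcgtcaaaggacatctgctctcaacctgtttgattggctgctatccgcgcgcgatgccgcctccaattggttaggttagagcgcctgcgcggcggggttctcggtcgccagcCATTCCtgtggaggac
Tardbp: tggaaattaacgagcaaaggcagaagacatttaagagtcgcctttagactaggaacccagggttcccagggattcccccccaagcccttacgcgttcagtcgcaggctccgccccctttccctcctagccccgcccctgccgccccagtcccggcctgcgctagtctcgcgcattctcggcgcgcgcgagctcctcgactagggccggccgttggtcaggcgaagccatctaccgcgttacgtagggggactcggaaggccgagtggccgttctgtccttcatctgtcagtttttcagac

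None of the 7 windows held the TATA box letters TATAAA on either strand, which 13.6% of all windows held, and no searched motif overlapped another. All 7 were richer in CpG than the median window, with 13 (*Sfpq*) to 39 (*Ewsr1*) CpG against a median of 7. The *Tardbp* window held 27 CpG at a GC content of 62.0%, beside 66.3% for *Ewsr1* and a median of 52.7% over all windows.

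The siCtrl library had a depth of 140815237 reads on genes and the si*Vgll3* library one of 125789276. M denotes log2 of the si*Vgll3* TPM over the siCtrl TPM and A denotes log2 of the mean TPM. A gene was called higher at M > 0.5 and lower at M < −0.5, both at A > 0, which 11754 genes passed. Square brackets give a 95% Clopper-Pearson interval, taken from the read ratio and moved to the scale of the TPM ratio, which covers counting error only and compares the libraries rather than the conditions. The siRNA target *Vgll3* had 202 TPM under siCtrl and 84.0 TPM under the knockdown (M −1.27 [−1.29, −1.24]), with 41.6% of the siCtrl level remaining. In bulk samples such as these, fewer cells of a type and less RNA per cell cannot be told apart.

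The cell type was checked against marker lists. All 10 fibroblast and myofibroblast markers were at A > 0, with summed TPM of 18947 under siCtrl and 14943 under si*Vgll3*, and 2 were called higher and 5 lower. Of the leukocyte markers, 3 of 8 were at A > 0 (summed TPM 13.4 and 6.10), and *Ptprc*, *Itgam*, *Adgre1* and *Cd3e* had no reads in either library. These 3 did not move together. *Lyz2* was called lower (10.9 and 3.13 TPM) and *Csf1r* higher, just past the threshold (1.29 and 1.83 TPM), while *Cd68* was neither (1.21 and 1.14 TPM). The endothelial markers summed to 24.0 and 19.6 TPM with 3 of 5 at A > 0, of which *Tek* was lower (19.5 and 13.4 TPM) and *Pecam1* (1.89 and 2.61 TPM) and *Cdh5* (2.13 and 3.01 TPM) were not, and the list's median M was 0.47. The mural markers summed to 228 and 137 TPM, with only *Pdgfrb* of 4 at A > 0. The cardiomyocyte markers summed to 60.0 and 10.4 TPM, with only *Tnnt2* of 6 at A > 0 and no reads in *Myh6*, *Actc1*, *Myl2* or *Ryr2*. The 3 Schwann cell markers were all below this level, at summed TPM of 0.0496 and 0.0962. The part of these marker differences in the results below was not tested.

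Of the 9 genes, only *Tardbp* was past the threshold. It was called higher in si*Vgll3*, at 3.00-fold the siCtrl level, and none was called lower. Over all genes at A > 0, 5.73% were called higher and 11.4% lower, so 1 higher and 0 lower of 9 is close to these shares and is no result about the genes as a group. The median M of the 9 genes was −0.09, beside −0.05 over all genes. No interval is given for it, since genes chosen by name are not replicates. Without *Tardbp*, M ran from −0.28 to 0.05 with a median of −0.11. The TPM of the 9 genes summed to 988 in both libraries. The other 8 summed to 967 TPM under siCtrl and 926 TPM under si*Vgll3*, and the share of *Tardbp* in the sum was 2.10% and 6.31%.

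**Figure D1:**
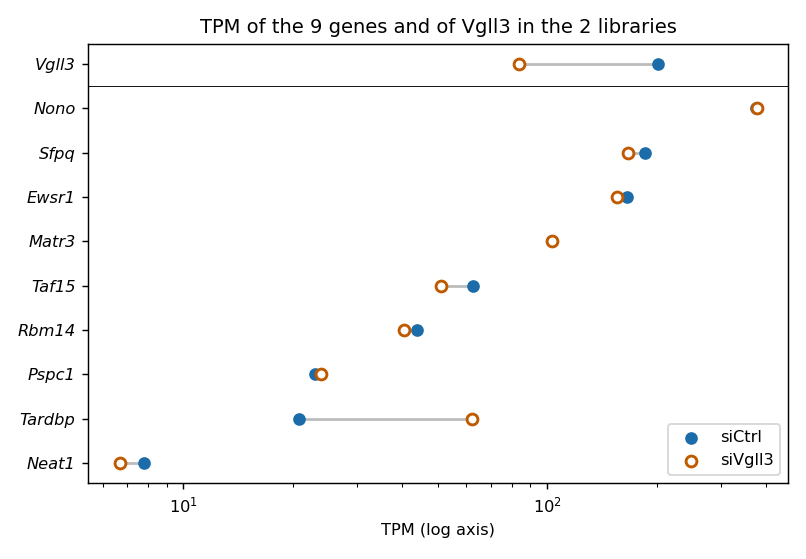
TPM on a log axis of the 9 genes, ordered by their siCtrl level, and of the siRNA target *Vgll3* above the line. Filled points are the siCtrl library and open points the si*Vgll3* library, 1 library each; *Tardbp* moves from 20.8 to 62.3 TPM, past *Pspc1*, *Rbm14* and *Taf15*, while the other 8 genes keep their order.

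In siCtrl the order of levels was *Nono*, *Sfpq*, *Ewsr1*, *Matr3*, *Taf15*, *Rbm14*, *Pspc1*, *Tardbp* and *Neat1*, as the plot of TPM by library shows. The closest neighbours were *Pspc1* and *Tardbp*, at 23.0 and 20.8 TPM, and *Sfpq* and *Ewsr1*, at 186 and 166 TPM. In si*Vgll3*, *Tardbp* at 62.3 TPM stood above *Taf15* at 51.2 TPM. With 1 library each there is no spread between samples against which to set these steps.

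*Ewsr1*, which encodes the FET protein that the study examined as a VGLL3 partner, had 166 TPM under siCtrl (25789 reads) and 156 TPM under si*Vgll3* (22450 reads). Its M was −0.09 [−0.11, −0.06], well inside the threshold. It was among the more abundant mRNAs of these cells in both libraries, at percentile 91.3 and 91.0 of genes at A > 0. In siCtrl *Vgll3* mRNA exceeded *Ewsr1* mRNA, with a TPM ratio of 1.22, whereas the ratio was 0.538 in si*Vgll3*.

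*Taf15*, a FET gene of lower level, had a TPM of 62.4 under siCtrl and 51.2 under si*Vgll3* (8160 and 6200 reads). Its M of −0.28 [−0.33, −0.24] was the lowest of the 9 genes but did not reach the threshold. The TPM ratio of *Ewsr1* to *Taf15* was 2.66 under siCtrl and 3.05 under si*Vgll3*.

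*Nono*, the DBHS gene whose protein marks the condensates of the study, was the most abundant of the 9, with 374 TPM under siCtrl and 377 TPM under si*Vgll3*. It had 58984 and 54965 reads and an M of 0.01 [−0.01, 0.03], with percentile 96.4 in both libraries. By CPM its M was 0.06. *Sfpq*, whose protein pairs with NONO and is needed for paraspeckles, was at 186 and 167 TPM with an M of −0.15 [−0.17, −0.13]. *Pspc1*, the least abundant DBHS gene, was at 23.0 and 23.9 TPM with an M of 0.05 [−0.02, 0.12].

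None of the 3 DBHS genes reached the threshold. *Nono* made up 64.1% of the DBHS sum in siCtrl and 66.3% in si*Vgll3*, *Sfpq* 31.9% and 29.5%, and *Pspc1* 3.95% and 4.20%. The TPM ratio of *Nono* to *Sfpq* was 2.01 in siCtrl and 2.25 in si*Vgll3*, and that of *Nono* to *Pspc1* was 16.3 and 15.8.

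*Rbm14*, which encodes an RNA-binding coactivator with a prion-like domain, had 44.0 TPM under siCtrl and 40.3 TPM under si*Vgll3* (8901 and 7552 reads), with an M of −0.13 [−0.17, −0.08]. *Matr3*, which encodes the nuclear matrix protein matrin 3, was at 103 TPM in both libraries (29413 and 27230 reads) with a counting interval of M from −0.02 to 0.02. Both genes were inside the threshold in both directions.

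**Figure D2:**
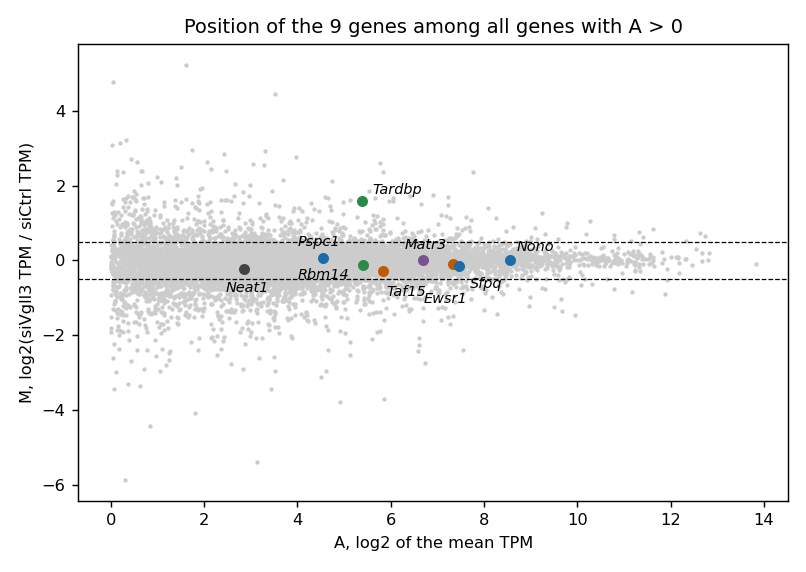
M against A for all 11754 genes at A > 0 (grey) and for the 9 genes (FET genes orange, DBHS genes blue, *Rbm14* and *Tardbp* green, *Matr3* purple, *Neat1* dark grey), with the thresholds of 0.5 and −0.5 as broken lines. *Tardbp* lies at an M of 1.58 near the upper edge of the genes of its level, and the other 8 lie between −0.28 and 0.05.

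*Tardbp* (NCBI gene 230908, chr4:148612382-148627019, minus strand) encodes TDP-43, an RNA-binding protein of splicing, mRNA stability and stress granules that is also found in paraspeckles. The siCtrl library had 8771 reads of it (20.8 TPM) and the si*Vgll3* library 26209 reads (62.3 TPM). Its M was 1.58 [1.55, 1.62]. The gene stood in the middle of the expressed genes under siCtrl, at percentile 50.4, and at percentile 78.0 under si*Vgll3*. By M it was number 72 from the top of 11754 genes, and of the 3645 genes with an A at least that of *Tardbp*, 10 (*Tardbp* included) had an M as high, or 0.274%. CPM, the reads scaled by the library total alone, gave an M of 1.74, larger than that from TPM.

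On the TPM scale the ratio of *Ewsr1* to *Tardbp* was 7.98 under siCtrl and 2.51 under si*Vgll3*, and that of *Nono* to *Tardbp* was 18.0 and 6.05. Among the 75 genes at A > 0 of the 9 genes and the lists of nuclear-body genes given below, *Tardbp* had the highest M, and the next was the noncoding RNA *Rian* at 0.49.

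The 2 deposited values of a gene, reads and TPM, also carry the mean length of the transcripts behind them, since reads per TPM scale with length. After scaling by the median of 6316 genes with 1 annotated transcript, the mean *Tardbp* transcript length was 6624 nt in siCtrl and 7134 nt in si*Vgll3*, longer by 510 nt. This difference, 0.11 on the log2 scale, was at percentile 99.0 among 3705 genes with several RefSeq transcripts and at least 500 reads in each library. Over those genes 2.59% moved by more than 0.1 in either direction. None of 6432 genes with 1 transcript did, which follows from their fixed length and is no support for the *Tardbp* difference.

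GENCODE gives the transcript Tardbp-202 a length of 7477 nt, with 6 exons, 414 codons for full-length TDP-43 and a 3′ UTR of 5879 nt. The other RefSeq-matched transcripts have 7 exons and 295 to 304 codons, and measure 6425 nt (Tardbp-206), 6495 nt (Tardbp-209), 6513 nt (Tardbp-210) and 1904 nt (Tardbp-204). If these lengths are those the authors used, the mean length places the share of Tardbp-202 in *Tardbp* TPM between 11.6% and 84.7% in siCtrl and between 64.5% and 93.9% in si*Vgll3*. On that assumption this is 2.40 to 17.6 TPM under siCtrl and 40.2 to 58.5 TPM under si*Vgll3*. These ranges do not overlap and would put Tardbp-202 at least 2.28-fold higher in si*Vgll3*. The remaining transcripts together had 3.18 to 18.4 TPM under siCtrl and 3.83 to 22.1 TPM under si*Vgll3*, ranges that overlap widely. These ranges rest on the mean lengths alone and hold no counting or replicate error.

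**Figure D3:**
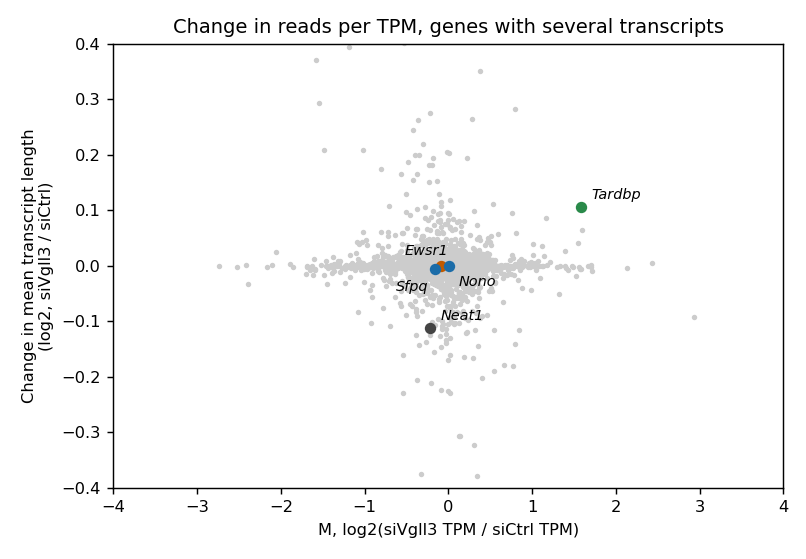
Change in mean transcript length (log2, si*Vgll3* over siCtrl, from reads per TPM) against M for 3705 genes with several transcripts, of which 7 lie outside the axes. *Tardbp* is at 0.11 and *Neat1* at −0.11, whereas *Ewsr1*, *Nono* and *Sfpq* are within 0.01 of 0.

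Reads of other loci could be mixed with those of *Tardbp* in 2 ways that the files allow to be looked at. *Masp2* overlaps its end by 3118 nt on the opposite strand and had 7 reads under siCtrl and 0 under the knockdown. Of the 50-base windows of Tardbp-202, 1.21% occur in annotated transcripts of a gene elsewhere, *Gm13886*. Within 100 kb, the neighbours at A > 0, chosen after values were seen, were *Mtor* (M −0.30), *Exosc10* (−0.13) and *Srm* (0.12), none past the threshold.

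*Neat1* (NCBI gene 66961, chr19:5824708-5845478, minus strand) is the RNA on which paraspeckles are built, by its long form. It was the least abundant of the 9 genes, with 1715 reads (7.81 TPM) under siCtrl and 1260 reads (6.69 TPM) under si*Vgll3*. Its M of −0.22 [−0.33, −0.12] was inside the threshold. *Nono* exceeded it in TPM by a factor of 48.0 under siCtrl and 56.3 under si*Vgll3*.

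The mean *Neat1* transcript length was 3448 nt in siCtrl and 3192 nt in si*Vgll3*, a log2 difference of −0.11 at percentile 1.24 of the genes with several transcripts. If the authors used the GENCODE lengths of 3004 nt for the short and 20771 nt for the long form, the long form would make up 2.50% of *Neat1* TPM under siCtrl (0.195 TPM) and 1.06% under si*Vgll3* (0.0709 TPM). The short form would be at 7.61 and 6.62 TPM, and the long form would account for 15.0% of *Neat1* reads under siCtrl and 6.90% under si*Vgll3*. The authors' lengths can differ widely from GENCODE, since the same computation gave *Pspc1* 2380 nt against 4114 nt and *Matr3* 4481 nt against 6262 nt, and a different length would change these shares. The long form of *Neat1* ends without a poly(A) tail, and the libraries were made by a kit that selects poly(A) RNA. The long-form values need not follow its level in the cell.

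*Neat1* was set beside its 12 neighbours within 100 kb, of which 11 were at A > 0, with a median M of 0.09. *Dpf2*, a subunit of chromatin remodelling complexes, was the only one called higher, with 17.7 TPM under siCtrl and 36.2 TPM under si*Vgll3* (M 1.03 [0.98, 1.09]). *Ltbp3*, which encodes a binding protein of latent TGF-β, was the only one called lower, at 111 and 73.6 TPM (M −0.59 [−0.62, −0.57]). *Malat1*, the nuclear RNA next to *Neat1*, was at 11.7 and 14.2 TPM (M 0.28 [0.23, 0.34]), so the TPM ratio of *Malat1* to *Neat1* was 1.50 in siCtrl and 2.13 in si*Vgll3*. *Frmd8* on the other side had an M of 0.31. Inside the threshold too were *Slc25a45* (0.39), *Pola2* (0.13), *Sssca1* (0.09), *Cdc42ep2* (−0.04), *Fam89b* (−0.25) and *Ehbp1l1* (−0.31). *Tigd3* was below A of 0.

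For the other members, overlap with further genes varied widely in extent. *Ewsr1* shares 341 nt with *Rhbdd3* on the opposite strand, which had 595 and 530 reads (M −0.11). *Rbm14* shares 11044 nt, nearly its whole locus, with the longer gene *Gm21992* on the same strand, which had 116 and 128 reads. *Matr3* shares 25571 nt with *Gm28285* on the same strand, and *Gm36989* and *AC121821.3* overlap it too. *Gm12940* overlaps *Sfpq*, *Gm21844* lies antisense to *Rbm14*, and *Gm27533*, *Gm27505* and *Gm28006* lie within *Neat1*. Of the genes named here as overlapping, only *Rhbdd3* and *Gm21992* had a value. Annotated transcripts of genes at other places held 28.3% of the 50-base windows of *Ewsr1* and 26.5% of those of *Nono*. The share was 1.96% for *Matr3* and 0.222% for *Neat1*, spread over 170 and 451 genes, and 0 for *Taf15*, *Sfpq*, *Pspc1* and *Rbm14*. Unannotated sequence was not searched. Reads shared with other genes could affect the levels of *Ewsr1* and *Nono*, to an extent that was not measured. How the authors counted reads with several matches is not given in the sources used here.

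The mean transcript lengths of the other members were almost equal in both libraries. That of *Ewsr1*, with 4 RefSeq transcripts, was 2439 nt in both, that of *Nono* 2473 nt in both, and that of *Sfpq* 3464 nt in siCtrl and 3449 nt in si*Vgll3*. *Taf15*, *Pspc1*, *Rbm14* and *Matr3* have 1 RefSeq transcript in the table.

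Other paraspeckle proteins were taken from a list of 32, of which 27 were at A > 0. None was called higher and none lower, with a median M of −0.01 and 13 above 0 against 14 below. The most abundant were *Rbm3*, a cold-inducible RNA-binding protein (931 TPM in siCtrl and 1037 in si*Vgll3*, M 0.16), *Hnrnpk*, which takes part in making long *Neat1* (680 and 739 TPM, M 0.12), and *Hnrnpf* (323 and 356 TPM, M 0.14). The extremes, named after their values were seen, were *Ahdc1* at −0.47 and *Hnrnpa1* at 0.40. *Tardbp* at 1.58 therefore stood outside the range of these 27 genes.

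**Figure D4:**
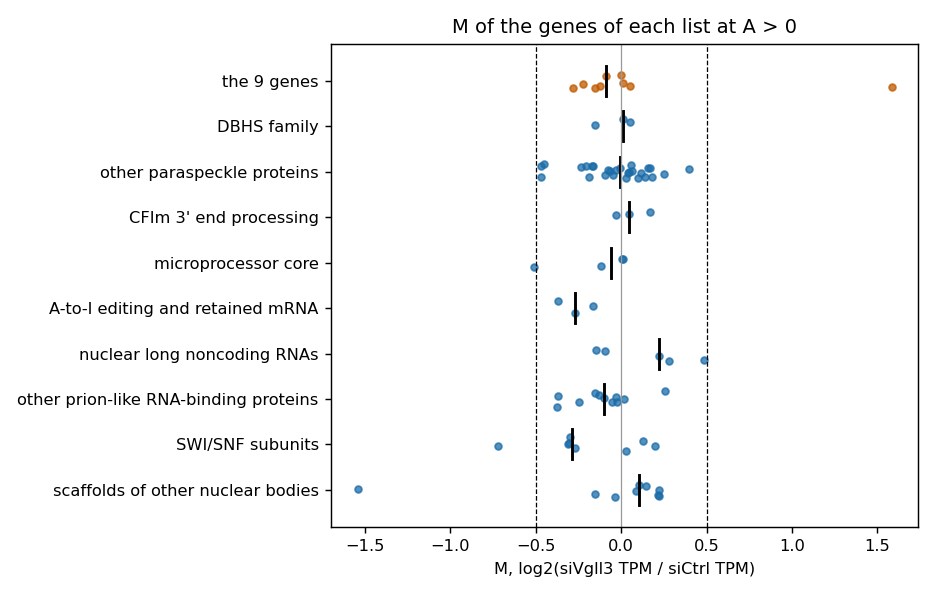
M of each gene at A > 0 in the 9 genes (orange) and in the lists of related genes (blue), with the median of each list as a black bar and the thresholds of 0.5 and −0.5 as broken lines. In these lists *Tardbp* is the only gene past 0.5, and *Sp100*, *Smarca2* and *Ddx17* are past −0.5; points are spread vertically for sight only.

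The 3 genes of the CFIm complex, which sets the 3′ end choice between short and long *Neat1*, had a median M of 0.05. *Nudt21* was at 135 and 151 TPM (M 0.17), *Cpsf7* at 32.3 and 33.4 TPM (0.05) and *Cpsf6* at 27.6 and 27.0 TPM (−0.03), so none reached the threshold.

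Of the 4 genes of the microprocessor, which cuts primary microRNAs and meets NONO and SFPQ at *Neat1*, *Drosha* was at 28.3 and 26.1 TPM (M −0.12), *Dgcr8* at 23.3 and 23.5 TPM (0.01) and *Ddx5* at 361 and 362 TPM (0.00). *Ddx17*, a helicase of the complex, had 104 TPM under siCtrl and 73.3 TPM under si*Vgll3*, with an M of −0.51 [−0.53, −0.48]. It was called lower by TPM but not by CPM, at −0.44, and its counting interval crosses the threshold.

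The A-to-I editing genes *Adar* (16.1 and 12.4 TPM, M −0.37) and *Adarb1* (15.2 and 12.6 TPM, −0.27) and *Slc7a2*, the gene of an mRNA kept in the nucleus by paraspeckle proteins (26.1 and 23.3 TPM, −0.16), were all lower in si*Vgll3* than in siCtrl, none past the threshold. Of 10 nuclear long noncoding RNAs, 9 were in the table and 5 at A > 0, with none past the threshold. *Rian*, an imprinted RNA, was at 66.0 and 92.5 TPM (M 0.49 [0.46, 0.52]), *Tug1* at 56.6 and 51.0 TPM (−0.15) and *Gas5* at 20.2 and 18.9 TPM (−0.09). *Rian* was past 0.5 by CPM, at 0.54.

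The 11 other RNA-binding proteins with prion-like domains had a median M of −0.10, with 9 below 0 and none past the threshold. *Hnrnpab* was at 510 and 610 TPM (M 0.26), *Hnrnpa2b1* at 452 and 443 TPM (−0.03) and *Hnrnpa3* at 140 and 108 TPM (−0.37). *Hnrnpa3* reached −0.52 by CPM.

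The 8 listed SWI/SNF chromatin remodelling subunits, of a complex that paraspeckles need, had a median M of −0.29. Of these, only the ATPase *Smarca2* was called lower (24.3 and 14.7 TPM, M −0.72 [−0.77, −0.67]). The alternative ATPase *Smarca4* was at 45.3 and 46.2 TPM (0.03), *Smarcb1* at 105 and 84.6 TPM (−0.31), *Smarce1* at 67.2 and 73.4 TPM (0.13) and *Smarcc1* at 47.2 and 54.0 TPM (0.20). The list does not hold every such subunit. *Dpf2*, described above as a *Neat1* neighbour, was not in it and was called higher (M 1.03). Of 9 scaffold genes of other nuclear bodies, only *Sp100* of PML bodies was called lower, at 20.3 and 6.98 TPM (M −1.54 [−1.65, −1.43]). The nucleolar genes *Npm1* (1253 and 1333 TPM, M 0.09), *Fbl* (153 and 179 TPM, 0.22) and *Ncl* (123 and 143 TPM, 0.22) were inside the threshold, and the median of this list was 0.11. Over these lists and the 9 genes, 1 of 75 genes was called higher and 3 lower, beside 5.73% and 11.4% of all genes.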

How the data were processed

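Libraries were made with the TruSeq Stranded mRNA LT kit and sequenced on an Illumina NovaSeq, 1 per condition. The authors' reads passed FastQC and Trimmomatic, HISAT2 aligned them to mm10, and StringTie quantified annotated genes and transcripts. Versions, the RefSeq release and whether strand was used in counting are not given in the sources used here. The authors deposited read counts per gene, whole numbers without normalization, and TPM values per gene, scaled for transcript length and library size.

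M and A were computed from TPM with nothing added before the logarithm. With 1 library per condition no test, SD or p-value was possible. The 95% Clopper-Pearson interval of each read ratio was computed with SciPy 1.17.1. It was also run on simulated counts that held counting error alone, so that run says nothing of replicate error. The member with the fewest reads had 1260 in a library. Mean transcript length is reads over TPM, scaled so that the median of single-transcript genes equals its GENCODE length. Of these, 70.4% lay within 5% of that length in siCtrl, since the authors' lengths can differ from GENCODE vM21.

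The 9 genes and 16 gene lists were chosen with earlier results of these data known. Named genes are the 9, *Vgll3*, all genes of the short lists, the 3 most abundant and any past the threshold of longer lists, neighbours of *Neat1* within 100 kb and genes that overlap a member; others are said to be chosen after their values were seen. Some genes that the rule takes are not reported here. Alternatives were CPM, edgeR 4.0.16 TMM factors (0.997 and 1.003) and DESeq2 1.42.0 size factors (1.05 and 0.949), 0.1 or 1 TPM added, M centred on its median, A > 2 or no filter on A, a threshold of 1, and the whole interval past 0.5. Both tools served for scaling only. No per-sample column was left out.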

Additional observations from a re-analysis of the deposited data

How the results depend on the processing

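*Tardbp* was the only one of the 9 genes past the threshold, and none was lower, under all 10 alternatives. Its M lay between 1.54 and 1.74. M changed sign for none of the 9 genes. It ran from −0.09 to −0.04 for *Ewsr1*, −0.28 to −0.23 for *Taf15*, 0.01 to 0.06 for *Nono*, 0.00 to 0.05 for *Matr3*, −0.15 to −0.11 for *Sfpq*, 0.05 to 0.10 for *Pspc1*, −0.13 to −0.07 for *Rbm14* and −0.29 to −0.18 for *Neat1*. Over all genes, the number called higher was 1428 with no filter on A, 393 at A > 2, 207 at a threshold of 1 and 442 with the whole interval past 0.5, beside 674. The number called lower was 2103 with no filter on A and 384 at a threshold of 1, beside 1341. Fewer or more genes pass by construction. The counts of the lists stayed within 1.5 times the main count in 185 of 200 comparisons. Most main counts were 0, and 0 against 0 was taken as unchanged, so this share says little of stability. *Ddx17* was not called lower by CPM, TMM or DESeq2 factors, by centring, at a threshold of 1 or with the whole interval past 0.5. *Smarca2* was called lower under all alternatives but the threshold of 1, and *Sp100* under all 10. The median M of the other paraspeckle proteins ran from −0.01 to 0.04 and that of the nuclear long noncoding RNAs from −0.04 to 0.27, so both changed sign. The scalings moved the median M of all genes by at most 0.05. No paired analysis was possible because siCtrl and si*Vgll3* have 1 library each. The depth limits *Neat1* most, with 1260 reads in si*Vgll3*, and replicate error is unknown for all values.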
